A study of Mus musculus with 121 samples.

Results

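The entorhinal cortex of rTg4510 mice at 4 months of age was compared with that of their wild-type littermates, using 8 transgenic (TG) and 8 wild-type (WT) mice chosen by genotype and age from their labels, out of 121 mice in the series. rTg4510 mice were bi-transgenic: a tTA effector driven by the CaMKII-alpha promoter, which is active mainly in forebrain excitatory neurons, switched on a tau responder carrying the human P301L mutation that causes frontotemporal dementia. Each parent gave 1 heterozygous transgene on a mixed 129S6/SvEvTac and FVB/NCrl background, and the WT littermates were the only controls, so an effect of the mutant tau, of tTA and of the sites where the transgenes integrated cannot be told apart. All mice were female and perfused with saline, the left entorhinal cortex was dissected, and polyadenylated RNA was sequenced from each mouse separately. The other mice of the line, aged 2, 6 and 8 months and 59 in all with those of 4 months, entered the same statistical fit and gave the earlier and later effects of the transgene. The 16 libraries of 4-month-old mice held 10558869 to 19588402 counted read pairs in TG mice and 10759159 to 23429968 in WT mice.

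Tau mice develop neurofibrillary tangles in neurons, and the glial cells around those neurons react. Microglia, the resident macrophages of the brain, sense lipids and debris through the receptor TREM2 and its signalling partner TYROBP, and then turn on a shared set of genes for phagocytosis, lysosomal digestion and chemokine release that is often called the disease-associated programme. Astrocytes, which support synapses and blood vessels, react by building intermediate filaments such as GFAP. Because whole tissue was sequenced, more cells of a type and more RNA per cell cannot be told apart in any value given here.

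The promoters of 4 glial genes described below are shown first: 3 microglial genes whose window held an AP-1 run, chosen once that was known, and Gfap for contrast. Each run is the 250 bases before the RefSeq start (GRCm38.p6), 5′ to 3′ on the strand of the gene, and capitals mark the letters TGACTCA, the AP-1 core, on either strand (TGAGTCA when read on the other). Cd68 lies behind chr11:69666171-69666420 on the minus strand, Itgax behind chr7:128129300-128129549 on the plus strand, C3ar1 behind chr6:122856158-122856407 on the minus strand and Gfap behind chr11:102897201-102897450 on the minus strand. Gene spans given further on come from the deposited table, whose gene starts can differ from those of RefSeq, as for Cd68.
Cd68: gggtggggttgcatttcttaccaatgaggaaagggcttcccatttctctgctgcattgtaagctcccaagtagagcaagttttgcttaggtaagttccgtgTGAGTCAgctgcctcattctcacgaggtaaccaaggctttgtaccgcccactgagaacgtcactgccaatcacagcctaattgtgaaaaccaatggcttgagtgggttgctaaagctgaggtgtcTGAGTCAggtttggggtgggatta
Itgax: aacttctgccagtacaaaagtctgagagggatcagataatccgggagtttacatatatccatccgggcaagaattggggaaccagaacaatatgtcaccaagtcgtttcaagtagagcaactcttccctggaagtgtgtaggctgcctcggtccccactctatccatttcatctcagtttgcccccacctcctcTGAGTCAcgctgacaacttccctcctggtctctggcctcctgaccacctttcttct
C3ar1: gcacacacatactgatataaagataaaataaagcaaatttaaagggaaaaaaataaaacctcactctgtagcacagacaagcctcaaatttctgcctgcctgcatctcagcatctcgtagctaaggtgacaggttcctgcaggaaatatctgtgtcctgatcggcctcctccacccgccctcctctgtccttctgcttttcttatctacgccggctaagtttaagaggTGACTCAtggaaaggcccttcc
Gfap: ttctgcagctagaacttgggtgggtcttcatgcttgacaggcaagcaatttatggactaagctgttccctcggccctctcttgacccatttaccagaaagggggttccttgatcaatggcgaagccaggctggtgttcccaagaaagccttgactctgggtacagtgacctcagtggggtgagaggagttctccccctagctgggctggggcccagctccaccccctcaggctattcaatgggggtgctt

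The Cd68 promoter held 2 such runs, those of Itgax and C3ar1 held 1 each, and the Gfap window held none of the 3 motifs searched. Of 33 named microglial genes, 23 matched the RefSeq table, with 29 promoters in all. AP-1 letters were in 4 of them, or 13.8%, against 4.46% of all 32851 promoters of the table, the fourth being Cd84. The letters GAGGAAGT, a core of sites for the macrophage factor PU.1, were in 0 of the 29 (2.44% of all promoters), and TTCNNNGAA, the form of STAT sites, was in 1 (3.45%, against 7.02%), in front of Irf8. Of 10 named astrocyte genes 6 matched, and Ntsr2 alone held a STAT run. These shares describe letters in short windows, were not tested, and say nothing of whether a factor binds there.

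The identity of the mice was checked on genes that the transgenes touch. Mapt, which encodes tau (chr11:104231436-104332093, mm10, plus strand), had 8452 to 9885 normalised read counts in TG mice (median 9022) and 6759 to 7883 in WT mice (median 7124), a log2 fold change of 0.34 ± 0.05 (SE, FDR = 2.31e-07). Prnp, the prion protein gene, parts of which the tau construct carries, had 31638 to 38853 counts in TG mice (median 35070) and 11300 to 15396 in WT mice (median 13535), a log2 fold change of 1.36 ± 0.06 (FDR = 2.52e-26). Counts of human and mouse Mapt transcripts are not separated in these values. For both genes every TG mouse lay above every WT mouse. At the integration sites, Esyt2 (log2 fold change −1.18), Ptprn2 (−1.14), Ncapg2 (−1.04), Wdr60 (−0.97) and Fgf14 (−0.69) were lower, again with no overlap between the groups. Car4, a carbonic anhydrase of the membrane, had 604 to 807 counts in TG mice (median 703) against 284 to 615 in WT mice (median 318), of which 615 belonged to WT mouse 6, while the other WT mice reached at most 391 (log2 fold change 0.94 ± 0.13, FDR = 1.53e-07, and 1.09 without WT mouse 6).

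A pair of mice stood apart in what follows. TG mouse 6 carried the transgene by each of these genes, with the highest Mapt (9885) of its group, 34870 counts of Prnp and 422 of Esyt2, and it had the deepest TG library, yet its glial genes lay close to the WT range. WT mouse 6 had higher levels of vascular and meningeal markers than the other WT mice. When libraries were weighted by their fit to the model, these mice received the lowest weights of the 16, 0.552 and 0.438, although 4 and 2 of the 59 mice of the line had a lower one.

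The question of the main comparison was which genes differed between TG and WT mice at 4 months. Of 18943 genes tested, 976 (5.15%) differed at FDR under 0.05, with 706 higher in TG mice (3.73% of genes tested) and 270 lower (1.43%), by the quasi-likelihood test of edgeR with Benjamini-Hochberg adjustment. The median absolute log2 fold change of the higher genes was 0.74, with 235 over 2-fold and 80 over 4-fold, and that of the lower genes was 0.34, with 30 over 2-fold and 8 over 4-fold. All 8 TG mice lay above all 8 WT mice in 79 of the 18943 genes (0.417%) and below them in 32 (0.169%). Leaving out TG mouse 6 gave 1176 genes, leaving out WT mouse 6 gave 1280, and leaving out both, an alternative chosen after seeing the data, gave 1604. Leaving out TG mouse 8 gave 664, and limma voom with a quality weight for each library gave 1776. Among named genes called in either fit, none reversed with voom or with any 1 of the 16 mice left out.

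The astrocyte filament gene Gfap, the microglial receptor gene Itgax and the phagocyte gene Cd68 rose in every TG mouse beyond the WT range. Gfap (chr11:102887336-102897200, minus strand) had 4943 to 39805 normalised counts in TG mice (median 16899) and 2025 to 3888 in WT mice (median 2620), with a log2 fold change of 2.73 ± 0.21 (FDR = 1.84e-14). Itgax, which encodes the integrin CD11c, had 28 to 557 counts in TG mice (median 282) and 3.22 to 13.2 in WT mice (median 7.06), with a log2 fold change of 5.30 ± 0.36 (FDR = 7.21e-17). Cd68, a glycoprotein of phagocyte lysosomes (chr11:69664371-69666062), had 189 to 683 counts in TG mice (median 407) and 114 to 167 in WT mice (median 138), with a log2 fold change of 1.58 ± 0.14 (FDR = 2.82e-13). In all 3 genes the groups did not overlap, TG mouse 6 was the lowest TG mouse and TG mouse 8 the highest. Without TG mouse 6 the log2 fold changes were 2.87, 5.48 and 1.69, and without TG mouse 8 they were 2.47, 5.07 and 1.44.

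**Figure D1:**
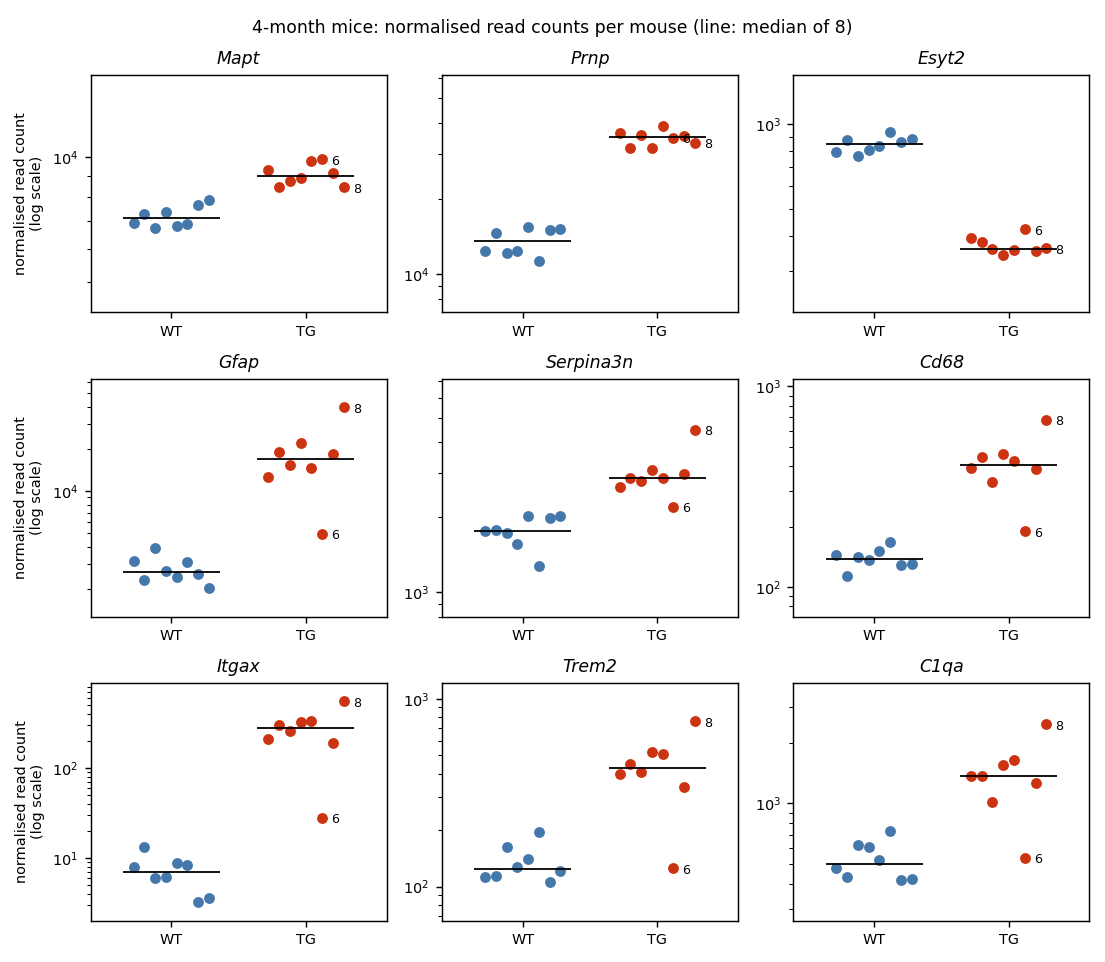
Normalised read counts of single glial and transgene-linked genes in each of the 8 TG and 8 WT mice at 4 months, on a log axis, with 1 point per mouse, a line at the median and TG mice 6 and 8 numbered. In Gfap, Cd68 and Itgax TG mouse 6 is the lowest TG mouse and TG mouse 8 the highest.

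Genes of the TREM2 and TYROBP pathway were called higher in 14 of 15 members tested, against 3.73% of all genes, and lower in 0, with a median log2 fold change of 1.16, beside 0.0049 over all genes tested. Trem2 itself, the receptor (chr17:48346401-48352273, plus strand), had 125 to 760 counts in TG mice (median 429) and 105 to 195 in WT mice (median 124), a log2 fold change of 1.71 ± 0.21 (FDR = 2.11e-08). Tyrobp, its adaptor, had 246 to 1150 counts in TG mice (median 757) and 144 to 254 in WT mice (median 191), a log2 fold change of 1.94 ± 0.19 (FDR = 1.02e-11). In both genes 7 of 8 TG mice lay above the highest WT mouse, and TG mouse 6 did not. Downstream, the adaptor Blnk rose without overlap from 78.1 to 102 counts in WT mice to 176 to 266 in TG mice (log2 fold change 1.21 ± 0.12, FDR = 2.87e-12), and here TG mouse 6 lay above every WT mouse too. The transcription factors that specify macrophages rose as well, with log2 fold changes of 1.60 for Irf8 and 1.23 for Sfpi1, which encodes PU.1. Cd84, a self-binding receptor of the SLAM family, rose by 2.67 ± 0.22 on the log2 scale, and Cd33, a receptor for sialic acid that dampens the pathway, by 0.79 ± 0.16.

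The disease-associated microglial list had 23 of 30 members called higher (3.73% of all genes) and 0 lower, with a median log2 fold change of 0.96. Clec7a, the receptor dectin-1 (chr6:129461591-129472777, minus strand), had 5.6 to 138 counts in TG mice (median 81.3) and 0 to 9.04 in WT mice (median 2.79). Cst7, an inhibitor of lysosomal proteases, had 1.24 to 253 counts in TG mice (median 56.5) and 0 to 3.17 in WT mice (median 1.08). The groups overlapped in both genes through TG mouse 6 alone, with 7 of 8 TG mice above the highest WT mouse. Fitted log2 fold changes were 4.51 ± 0.39 for Clec7a (FDR = 2.82e-13) and 5.89 ± 0.59 for Cst7 (FDR = 4.06e-11), and with WT mice so close to 0 these sizes depend on the prior count of the fit. Cd52, a small surface glycoprotein of leukocytes, had 27.4 to 185 counts in TG mice against 10.8 to 20.3 in WT mice (log2 fold change 3.08 ± 0.22, FDR = 8.81e-17). Lpl, the lipoprotein lipase, had 474 to 901 counts in TG mice against 367 to 444 in WT mice (log2 fold change 0.71 ± 0.12, FDR = 2.22e-05). Apoe, the lipid carrier, was not called: it had 17814 to 40503 counts in TG mice and 16022 to 28002 in WT mice (log2 fold change 0.40 ± 0.14, FDR = 0.0958). Without TG mouse 6 it passed the threshold (log2 fold change 0.48, FDR = 0.0268), and without WT mouse 6 it did too (0.47, FDR = 0.0401).

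Homeostatic microglial genes, the set that resting microglia express, were divided: 9 of 19 members tested were called higher and 1 lower, against 3.73% and 1.43% of all genes, with a median log2 fold change of 0.35. Csf1r, the receptor on which microglia depend for survival, had 1811 to 3756 counts in TG mice (median 3039) and 1426 to 2327 in WT mice (median 1778), a log2 fold change of 0.71 ± 0.13 (FDR = 0.000126), with 7 of 8 TG mice above the highest WT mouse. Olfml3 rose by 0.84 ± 0.14 on the log2 scale, Tgfbr1 by 0.76 ± 0.13 and Aif1, which encodes IBA1, by 0.51 ± 0.12 (FDR = 0.00238). The member called lower was Crybb1. The remaining 9 did not pass the test in either direction, among them Tmem119 and P2ry12, which mark microglia against other macrophages.

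Of 15 genes of complement and Fc receptors 12 were called higher, against 3.73% of all genes, and 0 lower, with a median log2 fold change of 1.23. C1qa, a chain of the recognition protein C1q, had 537 to 2470 counts in TG mice (median 1366) and 420 to 733 in WT mice (median 502), a log2 fold change of 1.41 ± 0.20 (FDR = 9.09e-07). C4b, the fourth component, which is made by astrocytes as well as microglia and has a close copy in the genome that short reads may not separate, had 460 to 3068 counts in TG mice (median 1263) and 150 to 365 in WT mice (median 257), a log2 fold change of 2.41 ± 0.24 (FDR = 7.53e-11). The C3a receptor gene C3ar1, whose promoter is printed above, had 37.9 to 197 counts in TG mice (median 106) and 9.32 to 22.6 in WT mice (median 16.2), with a log2 fold change of 2.73 ± 0.22 (FDR = 2.47e-14). C4b and C3ar1 had no overlap between groups, whereas in C1qa TG mouse 6 lay inside the WT range. The integrin Itgb2 and the Fc receptor Fcgr3 rose by 1.69 ± 0.16 and 1.09 ± 0.14 on the log2 scale.

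Of 23 lysosomal genes 21 were called higher (3.73% of all genes) and 0 lower, with a median log2 fold change of 0.66. Man2b1, a lysosomal mannosidase, had 683 to 2110 counts in TG mice (median 1466) and 515 to 595 in WT mice (median 574), a log2 fold change of 1.31 ± 0.12 (FDR = 6.52e-13). Gusb, beta-glucuronidase, had 269 to 676 counts in TG mice and 185 to 255 in WT mice (1.08 ± 0.11, FDR = 1.68e-11). For both enzymes every TG mouse was above every WT mouse, TG mouse 6 included. The protease Ctsz rose by 1.33 ± 0.13 on the log2 scale and Grn, the progranulin precursor, by 0.81 ± 0.11, each with 7 of 8 TG mice above the highest WT mouse.

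Chemokines and their like were called higher in 12 of 18 members, beside 3.73% of all genes, with 0 lower and a median log2 fold change of 1.59. Ccl6 had 35.4 to 366 counts in TG mice (median 241) and 7.18 to 23.8 in WT mice (median 19.3), a log2 fold change of 3.74 ± 0.26 (FDR = 8.81e-17). Ccl3 had 7.46 to 93.9 counts in TG mice (median 49.3) and 0 to 1.79 in WT mice (median 0.909), and Ccl4 4.97 to 53.4 counts (median 31.4) against 0 to 1.61 (median 0.506). All 3 attract leukocytes, and in all 3 the groups did not overlap, even in TG mouse 6. Among the genes with the smallest p-values that no list held, the checkpoint receptors of T cells Lag3 and Pdcd1 rose by 2.51 ± 0.22 and 4.32 ± 0.38 on the log2 scale. Mpeg1, a pore-forming protein of macrophages, had 565 to 3207 counts in TG mice (median 1910) and 246 to 481 in WT mice (median 354), a log2 fold change of 2.37 ± 0.19 (FDR = 6.47e-14). Markers of blood and infiltrating leukocytes were called in 0 of 10 members tested by edgeR and DESeq2, and in 0 at an unadjusted p under 0.05, with summed counts of 28.4 to 224 in TG mice and 21.7 to 241 in WT mice. Border macrophage markers gave the same counts of 0 over 7 members, with summed counts of 89.7 to 598 in TG mice and 151 to 502 in WT mice.

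Interferon and antigen-presentation genes were called higher in 6 of 20 and 6 of 16 members, against 3.73% of all genes, and lower in 0 of either. The interferon-induced Oasl2 had 23.9 to 116 counts in TG mice (median 42.2) and 20.9 to 29.5 in WT mice (median 28.9), where 116 belonged to TG mouse 2. Its log2 fold change of 0.88 ± 0.23 (FDR = 0.00846) did not pass without that mouse (0.58, FDR = 0.106). The interferon list as a whole had 2 members called without TG mouse 2, 10 without TG mouse 6 and 3 without WT mouse 7. H2-D1, a class I histocompatibility gene with close copies nearby, rose by 0.69 ± 0.15 on the log2 scale, its light chain B2m by 0.70 ± 0.13 and Cd74, the invariant chain of class II, by 1.57 ± 0.35.

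Astrocyte genes were called higher in part, against 3.73% of all genes. Of 29 reactive astrocyte genes 8 were called higher and 0 lower (median log2 fold change 0.62), and of 18 general astrocyte markers 4 were called higher (median 0.21). At an unadjusted p under 0.05, which 3100 of 18943 genes met in either direction, 14 and 8 were higher. Serpina3n, a protease inhibitor of reactive astrocytes, had 2197 to 4475 counts in TG mice (median 2870) and 1280 to 2019 in WT mice (median 1766), a log2 fold change of 0.76 ± 0.13 (FDR = 4.14e-05). Osmr, the oncostatin M receptor, had 75.9 to 293 counts in TG mice (median 198) and 39.5 to 73.9 in WT mice (median 63.5), a log2 fold change of 1.72 ± 0.19 (FDR = 8.63e-10). Both genes were without overlap. Cd14 and Srgn, which the reactive list holds, are also made by microglia, and the rise of Cd14 was 2.11 ± 0.24 on the log2 scale. The water channel Aqp4 rose by 0.59 ± 0.12, the apolipoprotein Clu by 0.43 ± 0.11 and the transcription factor Sox9 by 0.47 ± 0.13, the last of which did not pass without TG mouse 4 or 8 or WT mouse 5, 7 or 8. Vim, another filament protein of reactive astrocytes, had 432 to 1079 counts in TG mice and 385 to 853 in WT mice and was not called (log2 fold change 0.39 ± 0.17, FDR = 0.229).

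Oligodendrocyte genes were called in 0 of 16 members, against 5.15% of all genes in either direction. The fitted change was positive in all 16, with a median log2 fold change of 0.39 at 4 months and 0.56 at 2 months. At an unadjusted p under 0.05 there were 11 of the 16, all higher, beside 3100 of 18943 genes in either direction. DESeq2 called 1 of the 16. The myelin gene Mbp had 9230 to 19134 counts in TG mice and 7044 to 16757 in WT mice (log2 fold change 0.45 ± 0.20, FDR = 0.211). Cnp had 1783 to 3239 counts in TG mice and 1335 to 2471 in WT mice (0.49 ± 0.16, FDR = 0.0559), and it passed the threshold under DESeq2 and without TG mouse 6 (FDR = 0.0194). Genes of the precursor cells were called in 0 of 10 by edgeR and by DESeq2, with 1 at an unadjusted p under 0.05. Their gene Gpr17 had 1118 to 1424 counts in TG mice and 1200 to 1795 in WT mice (log2 fold change −0.12 ± 0.09, FDR = 0.548). Markers of endothelium (11), of pericytes and smooth muscle (8), and of choroid plexus and meninges (11) were called in 0 of their members by edgeR and by DESeq2, and at an unadjusted p under 0.05 there was 1 member, in the last list.

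Neuronal genes were called lower in part, against 1.43% of all genes. Of 18 synaptic genes 2 were called lower and 0 higher. At an unadjusted p under 0.05, which 3100 of 18943 genes met in either direction, 5 were lower. The fitted change was negative in all 18, with a median log2 fold change of −0.13. Rims1, which organises vesicle release at the active zone, had 1813 to 2851 counts in TG mice (median 2365) and 2485 to 4060 in WT mice (median 3204), a log2 fold change of −0.50 ± 0.09 (FDR = 2.79e-05). Ddn, or dendrin, of the postsynaptic side, had 13309 to 21735 counts in TG mice and 18324 to 32386 in WT mice (−0.49 ± 0.11, FDR = 0.00256). In each of these genes the ranges overlapped, with 6 and 5 of 8 TG mice below the lowest WT mouse. Among interneuron markers 4 of 11 were lower at an unadjusted p under 0.05, beside the same 3100 of 18943 genes, and 2 were called. They were Gad1, lower by a log2 fold change of −0.19 ± 0.06 (FDR = 0.0378), and Lhx6, by −0.28 ± 0.08 (FDR = 0.0157). Gad1 lost its call when any of 9 mice was left out. The excitatory list had 1 of 14 called, Tbr1, a transcription factor of deep cortical layers, which was higher in TG mice by 0.44 ± 0.10. Slc17a7, the vesicular glutamate transporter of excitatory neurons, had 13847 to 24278 counts in TG mice and 16342 to 23253 in WT mice (−0.15 ± 0.09, FDR = 0.437).

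The lower genes with the smallest p-values outside the integration sites were Susd5, Qrfpr, Alox12b, Rims2 and Tmtc4. Susd5 had 82.8 to 114 counts in TG mice (median 111) and 148 to 208 in WT mice (median 175), a log2 fold change of −0.72 ± 0.08 (FDR = 1.38e-09). Qrfpr, the receptor of a hypothalamic neuropeptide, had 23 to 47.8 counts in TG mice (median 37.4) and 59.1 to 154 in WT mice (median 113), a log2 fold change of −1.52 ± 0.24 (FDR = 3.62e-06). Every TG mouse, TG mouse 6 included, lay below every WT mouse in Susd5, Qrfpr, Alox12b and Tmtc4. Rims2, a relative of Rims1, fell by 0.35 ± 0.06 on the log2 scale with 7 of 8 TG mice below the lowest WT mouse. Markers of entorhinal and cortical layers, which checked the labelled tissue, were detected in all 10 members, with 1 called higher and 1 lower, where 3.73% and 1.43% of all genes were. Lef1, a transcription factor of Wnt signalling, had 179 to 307 counts in TG mice and 71.4 to 145 in WT mice (1.05 ± 0.12, FDR = 3.33e-09). Etv1, of layer 5, was lower by a log2 fold change of −0.42 ± 0.13 (FDR = 0.0445). It lost this call when most single mice were left out, with the label letter as a replicate block, and with the 4-month-old mice alone. Of 10 markers of other brain regions 1 was called, beside the same shares, Rgs9 of the striatum, which was higher but not called with the 4-month-old mice alone or without any 1 of TG mice 1, 2, 3, 4, 7 and 8 and WT mice 2, 4, 5, 7 and 8.

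Genes of lipid handling had 4 of 15 members called higher and 1 lower, against 3.73% and 1.43% of all genes, with a median log2 fold change of 0.18. Ch25h, which makes the oxysterol 25-hydroxycholesterol, rose by 1.88 ± 0.29 on the log2 scale and Abca1, a cholesterol exporter, by 0.56 ± 0.12. Hmgcs1, of cholesterol synthesis, had 2628 to 3483 counts in TG mice and 3028 to 4342 in WT mice (log2 fold change −0.25 ± 0.06, FDR = 0.00595).

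Stress, activity and proliferation genes are read against the 3.73% of all genes called higher and the 1.43% called lower. The stress-induced transcription factor Atf3 was the only 1 of 19 endoplasmic reticulum stress genes called, with 12.4 to 73.6 counts in TG mice (median 41.9) and 2.69 to 11.6 in WT mice (median 5.87), a log2 fold change of 2.75 ± 0.30 (FDR = 1.7e-10). At an unadjusted p under 0.05, which 3100 of 18943 genes met in either direction, the list had 1 higher and 4 lower. Of its 19 fitted changes 6 were positive. The chaperone Hspa5 had 2732 to 4110 counts in TG mice and 3436 to 4905 in WT mice and was not called (−0.24 ± 0.09, FDR = 0.126). Bdnf, the neurotrophin, was the only 1 of 12 activity-regulated genes called (0.53 ± 0.14, FDR = 0.0106), and not so without TG mouse 7 (0.36, FDR = 0.0874), which had 588 counts. Of 14 proliferation genes 4 were called higher and 8 had an unadjusted p under 0.05, all higher, among them Mcm3 (0.60 ± 0.15), which loads onto DNA before replication, and Cdk1 (1.43 ± 0.38), with 2.49 to 15.1 counts in TG mice and 1.61 to 7.39 in WT mice. Their number was 2 without TG mouse 4 or 8 or WT mouse 2, 5 or 7. Of 21 genes linked to Alzheimer's disease by genetics 9 were higher and 0 lower. They were Trem2, Cd33, Abi3, Inpp5d, Plcg2, Sfpi1, Grn, Clu and Frmd4a. Of these Frmd4a, a scaffold protein of cell polarity, had 782 to 1001 counts in TG mice and 693 to 819 in WT mice (0.27 ± 0.06, FDR = 0.0011). App had 19454 to 25156 counts in TG mice and 18652 to 26071 in WT mice (−0.02 ± 0.06, FDR = 0.93).

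**Figure D2:**
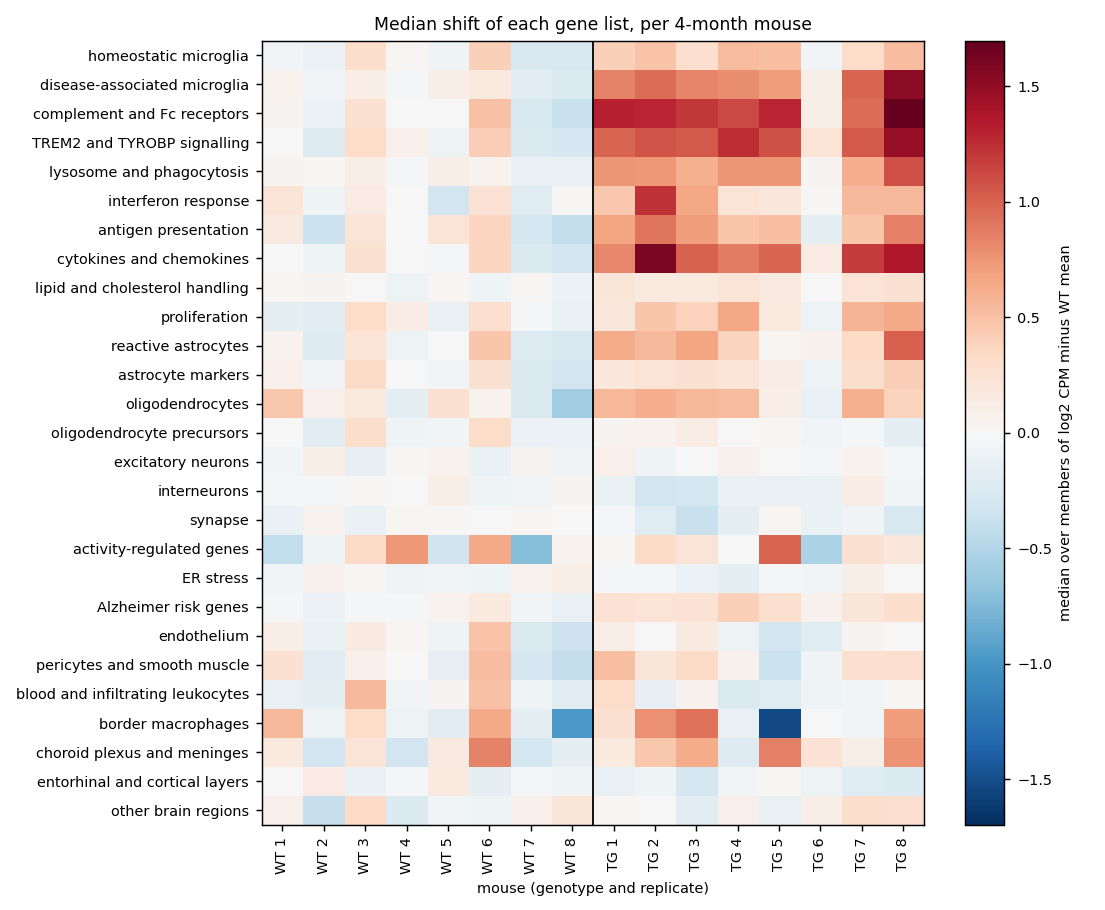
Median shift of each gene list in each mouse, as log2 CPM minus the mean of the 8 WT mice (colour), with mice in columns and lists in rows. The microglial and lysosomal lists are raised in 7 of the 8 TG mice, and TG mouse 6 stands between 0.04 and 0.23 in the disease-associated, complement, TREM2 and lysosomal lists.

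Whether the difference began between 2 and 4 months was tested as the change of the TG effect between those ages, which rest on different mice. Of 18943 genes, 147 (0.776%) had a different effect at FDR under 0.05, 145 (0.765%) with a higher effect at 4 months and 2 (0.0106%) with a lower one. Of the 145, 140 were among the 706 genes higher at 4 months, an overlap that is a description, since both tests use the same 4-month-old mice. Of the 706, 12 were also called higher at 2 months, and the share of all genes called at that age is not given here. The median log2 fold change of the 706 was 0.09 at 2 months, and since they were chosen at 4 months that contrast is a description. Without TG mouse 6 the number was 244 and without WT mouse 6 it was 223.

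The genes with a higher effect at 4 months included Gfap and many microglial genes. Gfap had 4086 to 6851 counts in TG mice at 2 months (median 5483) and 2535 to 4299 in WT mice (median 3399), and its effect was larger at 4 months by 2.03 ± 0.29 on the log2 scale (FDR = 2.7e-05). Cd68 had 151 to 207 counts in TG mice at 2 months and 126 to 204 in WT mice, and its effect was larger at 4 months by 1.40 ± 0.20 (FDR = 2.7e-05). Itgax had 6.65 to 22.6 counts in TG mice at 2 months and 2.12 to 20.0 in WT mice, and its effect was larger at 4 months by 4.39 ± 0.70 (FDR = 0.000122). The groups overlapped at 2 months in all 3 genes and did not at 4 months. TG mouse 6 at 4 months lay within the range of the 2-month-old TG mice in Gfap (4943 counts) and Cd68 (189), but above it in Itgax (28). By list, 15 of 30 disease-associated, 13 of 23 lysosomal, 8 of 15 complement, 6 of 18 chemokine and 5 of 15 TREM2 genes had a higher effect at 4 months, against 0.765% of all genes. In the homeostatic list 2 of 19 did, in the reactive astrocyte list 4 of 29, and among general astrocyte markers 0 of 18. In other lists 4 of 21 Alzheimer risk, 3 of 19 endoplasmic reticulum stress, 2 of 20 interferon, 2 of 15 lipid, 1 of 14 proliferation and 1 of 10 precursor genes did. Cst7, with a log2 fold change of 0.88 at 2 months and 5.89 at 4 months, did not pass the test of that difference (FDR = 0.228).

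A few genes crossed the ages in other ways. The effect on Gpr17 went from −0.62 at 2 months to −0.12 at 4 months, a difference of 0.50 ± 0.12 (FDR = 0.0249). The genes with a lower effect at 4 months were Mthfd1l, an enzyme of mitochondrial folate metabolism (0.20 at 2 months, −0.41 at 4 months, difference −0.61 ± 0.14, FDR = 0.0104), and Bbs9, a subunit of the ciliary BBSome (0.35 and −0.09, difference −0.45 ± 0.12, FDR = 0.0441). The 270 genes lower at 4 months had a median log2 fold change of −0.16 at 2 months.

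Between 4 and 6 months the effect of the transgene differed in 0 of 18943 genes (0%) by the same test, while 1300 had an unadjusted p under 0.05, and DESeq2 called 2 genes. The median log2 fold change of the 706 higher genes was 0.87 at 6 months and 0.93 at 8 months, and 540 and 634 of them were called higher at those ages. The shares of all genes called at those ages are not given here. For the 270 lower genes the medians were −0.26 and −0.42, with 134 and 216 called lower, again with no share of all genes to set beside them. Gfap stood at 2.73 at 4 months, 3.19 at 6 months and 3.46 at 8 months, Cd68 at 1.58, 2.05 and 2.04, and C1qa at 1.41, 2.35 and 1.87. Some chemokines had their highest fitted effect at 4 months, as Ccl6 with 3.74, 3.35 and 2.36, a course that was not tested for the last step. A p that misses the threshold does not show that the effects at 4 and 6 months were alike.

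**Figure D3:**
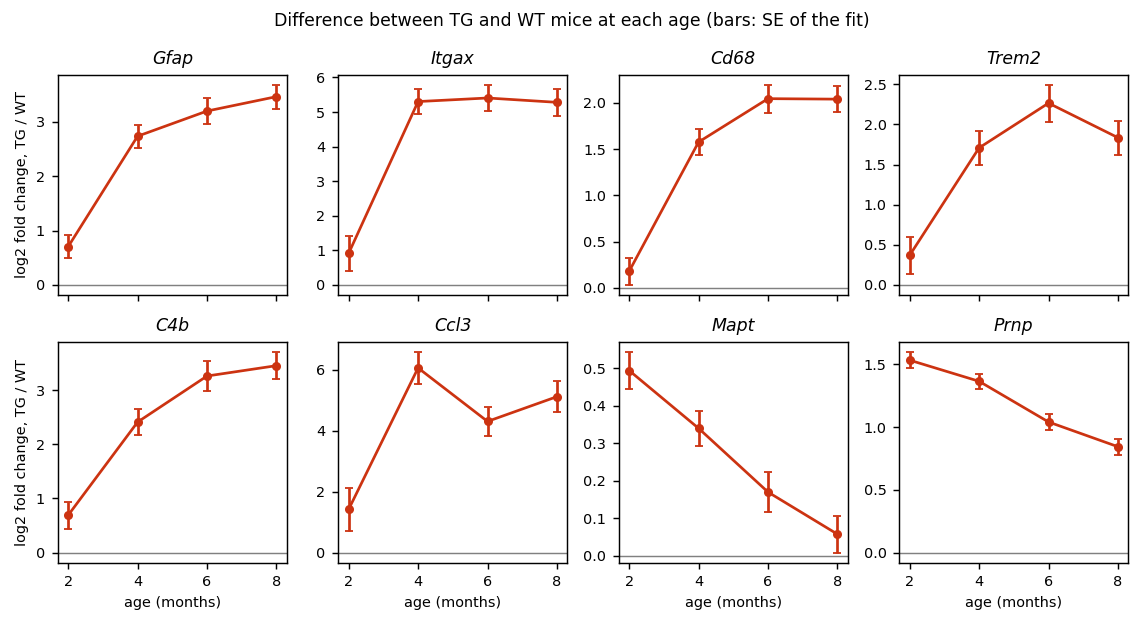
Log2 fold change of TG against WT mice by age in months for Gfap, Itgax, Cd68, Trem2, C4b, Ccl3, Mapt and Prnp, with bars for the standard error of the fit. Gfap goes from 0.70 at 2 months to 2.73 at 4 months.

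The TG mice of this age differed in how far their called genes were shifted. To place each mouse without using its own values, genes were called again with that mouse left out, and its median shift from the WT mice on those genes was taken. On genes called higher without it, TG mouse 6 shifted by 0.13 on the log2 scale over 847 genes, with 72.1% in the direction of the other TG mice and 18.1% above the range of the WT mice. TG mouse 8 shifted by 1.19 over 518 genes, with 99.0% in that direction and 95.4% above the WT range. The other 6 TG mice shifted by 0.54 to 0.84. WT mice, treated in the same way, lay between −0.23 (WT mouse 8) and 0.38 (WT mouse 6), so WT mice 3 (0.30) and 6 stood above TG mouse 6 on this scale. On genes called lower without it, TG mouse 6 shifted by −0.14, close to TG mouse 5 with −0.14, and TG mouse 8 by −0.50. WT mice lay between −0.25 (WT mouse 6) and 0.03 (WT mouse 7) on the lower genes, so the groups overlapped, with WT mouse 6 below TG mice 1 (−0.20), 5 and 6.

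**Figure D4:**
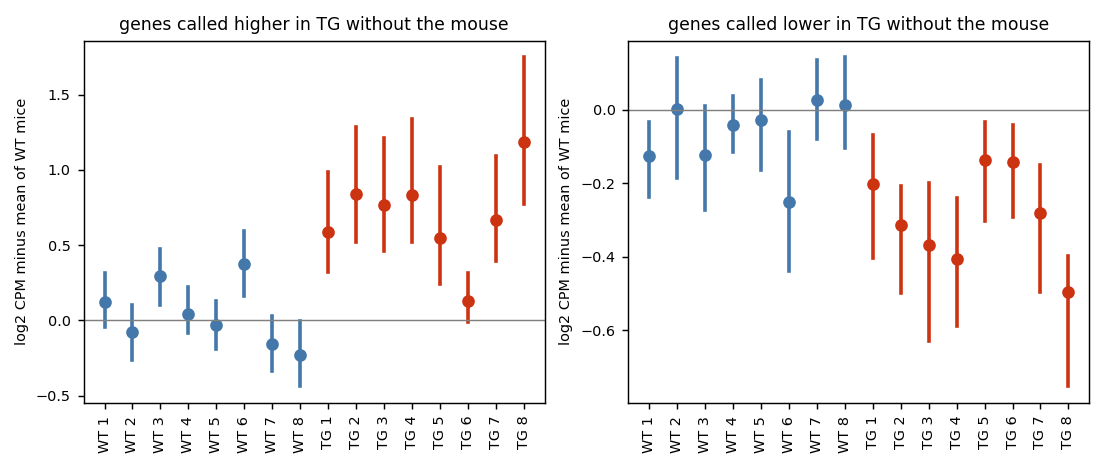
Median shift of each mouse, in log2 CPM against the WT mice, on the genes called higher (left) and lower (right) when that mouse was left out of the fit, with lines from the first to the third quartile of genes. TG mouse 6 lies at 0.13 on the higher genes, within the range of the WT mice, and TG mouse 8 at 1.19.

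List by list, TG mouse 6 shifted by 0.10 in disease-associated, 0.11 in complement, 0.23 in TREM2 and 0.04 in lysosomal genes. The other 7 TG mice ranged from 0.71 to 1.52, 0.95 to 1.70, 0.99 to 1.48 and 0.60 to 1.09. In homeostatic microglial genes TG mouse 6 lay at −0.05 and the others between 0.29 and 0.54. WT mice lay between −0.26 and 0.41 there, with WT mouse 6 above TG mice 1, 3 and 7. Its astrocyte markers lay at −0.08 (others 0.13 to 0.42, WT mice −0.33 to 0.33) and its oligodendrocyte genes at −0.13 (others 0.11 to 0.61, WT mice −0.59 to 0.46). In both lists the other TG mice overlapped the WT mice. In reactive astrocyte genes TG mouse 5 (0.03) lay below TG mouse 6 (0.07), the other 6 TG mice ranged from 0.34 to 1.02, and WT mouse 6, at 0.47, stood above 4 TG mice. TG mouse 2 had the highest interferon (1.23) and chemokine (1.60) shifts of the group. Among markers of other cells, border macrophage genes lay at −1.53 in TG mouse 5, and choroid plexus and meningeal genes at 0.84 in WT mouse 6 and 0.86 in TG mouse 5. TG mouse 6 lay between −0.21 and 0.25 in the vascular, leukocyte, border macrophage and meningeal lists, and the part of its deeper library in its position was not tested.

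Whether TG mice varied more than WT mice was tested gene by gene on the absolute deviation of each mouse from its group mean. Of 14364 genes with enough counts, 1 passed at FDR under 0.05 (0.00696%), and it was not a glial gene. At an unadjusted p under 0.05 there were 1307 genes, 438 wider in TG and 869 wider in WT mice. The SD of log2 CPM was larger among TG mice in 44.52% of genes. A gene near 0 in WT mice enters through the TG mice, and its WT SD is damped by the prior count. The lists are therefore described over members with a mean of at least 50 counts in each group, a minimum chosen after seeing the data, over which the SD was larger in TG mice in 43.91% of 11882 genes. It was larger in 18 of 23 disease-associated genes, with a median SD of 0.33 in TG and 0.19 in WT mice, and in 22 of 23 lysosomal genes, with 0.30 and 0.13. The counts were 9 of 12 for complement and Fc receptor genes, 5 of 11 for TREM2 genes, 9 of 15 for homeostatic genes, 6 of 11 for antigen presentation, 11 of 15 for reactive astrocyte genes and 2 of 18 for astrocyte markers. Lists outside glia also had larger SDs in TG mice, with 8 of 11 interneuron markers (8 as well without TG mouse 6 or TG mouse 8), 5 of 7 pericyte and 5 of 6 choroid plexus and meningeal markers. These counts rested on single mice. Over members with a mean of at least 10 counts, the pericyte count went from 6 to 2 of 8 without TG mouse 5. The choroid plexus and meningeal count went from 7 to 2 of 9 without that mouse, and the interneuron count to 5 of 11 without TG mouse 7. Without TG mouse 6 the counts of the first 8 lists, in the order given, were 10, 16, 8, 3, 2, 1, 8 and 0, against 40.88% of all these genes. Without TG mouse 8 they were 14, 21, 9, 5, 7, 6, 8 and 1, against 45.27%.

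**Figure D5:**
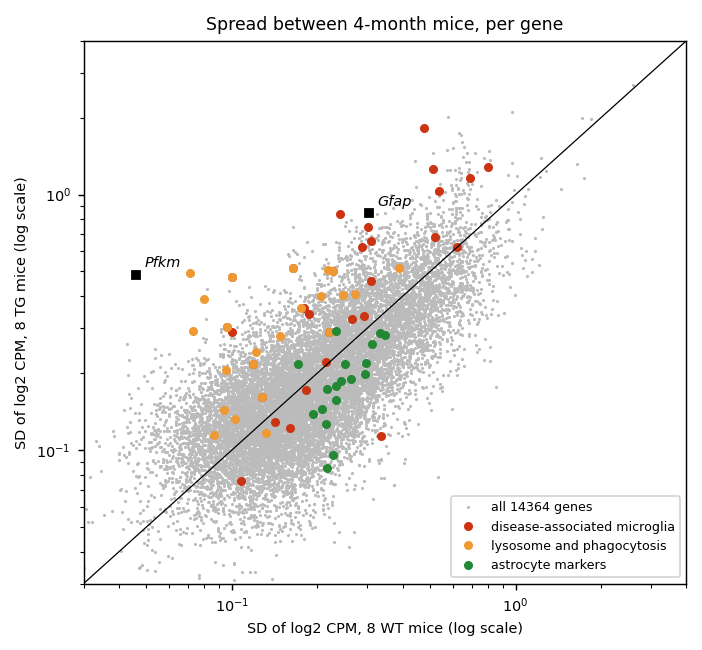
SD of log2 CPM among the 8 TG mice against that among the 8 WT mice at 4 months, 1 point per gene, on log axes with 3 glial lists in colour, Gfap and Pfkm as squares and the line of equal SD. Lysosomal genes lie above the line in 22 of 23 cases, against 44.52% of all genes.

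Single genes of interest did not reach significance for spread. Gfap had an SD of 0.85 in TG and 0.30 in WT mice on the log2 scale (exact permutation test of the absolute deviations, two-sided, p = 0.2197, adjusted over 17 genes p = 0.6503), and in TG mice 0.54 without mouse 6 and 0.29 without mice 6 and 8. Cd68 had 0.51 and 0.16 (exact permutation p = 0.2295, adjusted p = 0.6503). In the other direction, Snap25, a protein of the synaptic vesicle machinery, had 0.044 in TG and 0.16 in WT mice (exact permutation p = 0.01943, adjusted p = 0.1651). None of the 17 genes passed after adjustment, and this test was chosen after seeing the data.

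The gene that passed was Pfkm, the muscle form of phosphofructokinase, an enzyme of glycolysis. It had 3082, 3241 and 3376 normalised counts in TG mice 7, 4 and 8 and 5866 to 6355 in the other 5 TG mice, while the WT mice lay between 5978 and 6615. Its SD was 0.49 in TG and 0.05 in WT mice (limma, FDR = 0.0041), and it lost that call without TG mouse 4, 7 or 8. Low values also occurred outside the group, with 3359 counts in 1 TG mouse at 2 months, 3277 in 1 WT mouse at 6 months and 3125 and 3368 in 2 WT mice at 8 months, and every other mouse of the line had at least 5700. The low values occurred in both genotypes and at each of the 4 ages. Synpr, a vesicle protein with one of the 10 smallest p-values, had 718 to 843 counts in TG mice 2, 4, 7 and 8 and 1199 to 1269 in the other TG mice. Prox1, a transcription factor of the dentate gyrus of the hippocampus, had 193 to 278 counts in TG mice 3, 4, 6 and 8, 99.8 to 108 in the others and 97.1 to 171 in WT mice. Neither passed the test over all 8 TG mice, and Prox1 passed without TG mouse 4. At other ages WT mice reached 429, 508 and 540 counts of Prox1 (2, 6 and 8 months) and ranged from 753 to 1819 in Synpr (2 months).

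Whether the mice high in Gfap were also high in other genes was asked over the 8 TG mice for a family of 16 genes. Cd68 had a Pearson r of 0.96 (exact permutation p = 0.002728, adjusted p = 0.01706) and a Spearman rho of 0.81 (exact permutation p = 0.02178, adjusted p = 0.0871). Trem2 had an r of 0.93 and a rho of 0.76, C1qa 0.92 and 0.64, and Aif1 0.90 and 0.83. Mapt went the other way, with an r of −0.80 (exact permutation p = 0.008234, adjusted p = 0.01706) and a rho of −0.86 (exact permutation p = 0.01071, adjusted p = 0.08201), so that the mice with more Gfap had less Mapt. In all, 12 of 16 genes passed after adjustment by Pearson's r and 1, Serpina3n, by Spearman's rho (0.95, exact permutation p = 0.001141, adjusted p = 0.01825). Without the 2 mice farthest from the median of Gfap, TG mice 6 and 8, r was 0.52 for Cd68, 0.23 for Trem2, 0.13 for C1qa, 0.70 for Aif1, 0.91 for Serpina3n and −0.56 for Mapt, while for Prnp it went from −0.39 to −0.81. After adjustment 0 of 16 passed, the closest being Serpina3n (exact permutation p = 0.01528, adjusted p = 0.2444), and 6 mice leave little room to pass. The r of Cd68, Trem2 and C1qa thus depended on those mice, and those of Aif1 and Serpina3n less so, a difference that was not tested.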

How the data were processed

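The authors isolated RNA from the entorhinal cortex, prepared strand-specific mRNA libraries with spike-in controls, sequenced them as paired reads, trimmed them, aligned them to mm10 (GRCm38.p4) with STAR and assigned them to genes with featureCounts, with quality checks by FastQC. The strand setting of the counting is not given in the sources used here. The deposited values were raw read counts per gene for 23337 genes and 121 mice, of which the 59 columns of the rTg4510 line were used and 0 columns could not be matched to a mouse. The authors' own model was made in R 3.4.3 with DESeq2 1.16.1.

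Here counts were scaled by TMM and tested with the quasi-likelihood F test of edgeR 4.0.16 in R 4.3.3 (robust, 8 means for genotype and age, genes with at least 6 counts over the 59 mice, Benjamini-Hochberg over all genes tested). The FDR of a gene is that adjusted p. The same fit gave the differences of effect between ages. Normalised read counts are counts divided by the DESeq2 size factor of each library, not by TMM. Log2 CPM used a prior count of 2. Spread was tested with limma 3.58.1 on absolute deviations for genes with a mean of at least 10 counts. Exact permutation tests and figures were made in Python 3.11.15. Simulated data were used to check the fits of TG against WT mice and the limma test of spread only. Mice are numbered within a group, and p-values measure the spread between mice.

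The members and the 28 gene lists were chosen with earlier results of these data known. Genes were named by rule: those the study names for this line, the 15 with the smallest p in each direction, the 4 with the smallest p in each list, the 5 in each direction for the changes between ages, the 10 for spread, and the correlation family. Symbols were matched to older names where needed, and Bin2, Hba-a1, Hba-a2, Hbb-bt and Ly6g had no tested row. The text describes a part of the genes so named. Alternatives were DESeq2 1.42.0, other size factors and filters, RIN as a covariate, a replicate block, limma voom with weights, fewer mice, and leaving out each mouse. The J20 line was not analysed here.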

Additional observations from a re-analysis of the deposited data

Results flagged for a closer look

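Across 254 groups of 8 values, made of the named genes and the gene lists in TG and in WT mice, 25 held a mouse set apart from the other 7 by a gap that took up more of the whole range than Dixon's critical value for 8 samples, where chance gives about 1 in 20. TG mouse 6 was such a mouse, on the low side, in the median shift of 6 lists: homeostatic microglia (−0.05), complement and Fc receptors (0.11), TREM2 and TYROBP signalling (0.23), lysosome and phagocytosis (0.04), antigen presentation (−0.15) and lipid and cholesterol handling (0.01). It was also the low mouse in Pdcd1 (3.73 normalised counts) and Olfml3 (161). TG mouse 8 was set apart on the high side in Cst7 (253), C4b (3068) and Serpina3n (4475).

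Other TG mice were set apart in single genes: TG mouse 1 in Lef1 (307), TG mouse 2 in Oasl2 (116) and TG mouse 7 in Bdnf (588). TG mouse 5 had 1999 counts of the choroid plexus gene Ttr and 115 of Clic6, with border macrophage genes at −1.53. Among WT mice, mouse 6 was set apart in Car4 (615), Itgb2 (106), Gad1 (3951, low), Ttr (619), Clic6 (44.3) and the choroid plexus and meningeal list (0.84). WT mouse 2 was high in Tbr1 (1382) and WT mouse 5 low in Rims2 (1663).

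For 40 of the 99 named genes the effect of genotype differed between 4 and 2 months by the test of that difference (FDR under 0.05, edgeR). Over all 18943 genes the number was 147 (0.776%). Some genes were named for their small p in this test or at 4 months, so the count of 40 is a description. The values here are the effect at 4 months minus that at 2 months on the log2 scale. In receptors and surface genes it was 4.65 for Clec7a, 4.39 for Itgax, 3.88 for Pdcd1, 2.49 for Cd52, 2.46 for Siglec5, 1.80 for Lag3, 1.78 for Cd84, 1.5 for Tyrobp, 1.34 for Trem2 and 0.76 for Tgfbr1. In chemokines it was 5.19 for Ccl4, 4.64 for Ccl3, 2.68 for Ccl6 and 1.85 for Ccl9. In complement and Fc genes it was 2.15 for C3ar1, 1.72 for C4b, 1.44 for Itgb2, 1.23 for C1qa and 0.96 for Fcgr3. In lysosomal and phagocytic genes it was 1.70 for Mpeg1, 1.40 for Cd68, 1.14 for Man2b1, 1.09 for Ctsz, 0.94 for Gusb and 0.70 for Grn. The transcription factors Atf3 (2.66), Irf8 (1.52) and Sfpi1 (1.36), the lipid enzymes Ch25h (1.83) and Lpl (0.79), the interferon-induced Lgals3bp (0.85) and the cell-cycle kinase Cdk1 (2.25) moved the same way. In the astrocyte lists it was 2.03 for Gfap, 1.80 for Aspg, 1.75 for Cd14 and 1.73 for Osmr. The smaller values were 0.50 for Gpr17, 0.41 for Frmd4a, −0.45 for Bbs9 and −0.61 for Mthfd1l.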

How the results depend on the processing

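The 99 named genes had 2079 log2 fold changes under 5 other fits and with each of the 16 mice left out. Of these, 2015 kept their side of the threshold, 52 lost the call and 12 gained it. Where either fit called the gene, 0 reversed, and direction was not compared where neither did. Of 588 counts of called list members, 528 stayed within 1.5 times and 60 did not. At 4 months, against 976 genes, limma voom with sample weights gave 1776 (1137 higher, 639 lower), a threshold of 0.01 gave 552, the 16 mice alone with a replicate block gave 479 (849 without it), and leaving out both mice numbered 6 gave 1604, an alternative chosen after seeing the data. Leaving out 1 mouse gave 664 (without TG mouse 8) to 1280 (without WT mouse 6). For the change from 2 to 4 months, against 147, voom gave 362, mice of those ages alone 95, a threshold of 0.01 gave 74, both mice 6 left out 398, and leaving out 1 mouse 110 to 244. From 4 to 6 months, against 0, DESeq2 gave 2 (Alg14 and Plin4), the replicate block 3, no robust estimation 1, and leaving out 1 mouse 0 to 1. For spread, against Pfkm alone, squared deviations and deviations from the median gave 0, no minimum of 10 counts gave 216, and leaving out 1 mouse 0 to 3, with 0 without TG mouse 7 or TG mouse 8 and Chrna1 and Prox1 in place of Pfkm without TG mouse 4. For the 12 correlations with Gfap, Spearman's rho gave 1 and leaving out the 2 farthest mice gave 0. The cause was not tested.

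Mice of the 2 genotypes share label letters. Deviations of same-letter mice had a mean correlation of −0.0337 over 8 pairs (−0.457 to 0.629, 3 over 0.1), against 0.00334 for other pairs. So few pairs, with so wide a range, cannot decide whether the letters pair the mice. TG mouse 6 and WT mouse 6 share a letter. With the letter as a replicate block over all 59 mice the counts were 1065 at 4 months and 146 for the change from 2 months. With the 4-month-old mice alone the count was 479 with the block and 849 without it.

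Low depth limits genes near 0 in WT mice, whose fold changes depend on the prior count, and with 8 mice a group 1 or 2 mice move the counts of calls.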

Other observations

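Some markers that bear on the edges of the dissection also varied between mice of both genotypes. The desmosome gene Dsp, which is high in the dentate gyrus, had 27 to 167 counts in TG mice (median 67.6) and 20.3 to 72.7 in WT mice (median 33.1), with 4 of 8 TG mice above the highest WT mouse and no call (log2 fold change 1.04 ± 0.58, FDR = 0.378). These were TG mice 3, 4, 6 and 8, which were also the highest TG mice in Prox1 and in C1ql2 of the same list. They had 106 to 145 counts of C1ql2, against 22.2 to 125.5 in WT mice, and this joint pattern was not tested. The choroid plexus gene Ttr had 38.3 to 1999 counts in TG mice and 12.2 to 619 in WT mice (1.71 ± 0.90, FDR = 0.35).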
